A study of Homo sapiens with 2 samples.

Results

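A set of 7 heat shock genes was followed at every transcript A position listed in mRNA of HEK-293T, a cell line from human embryonic kidney, with the CIRTS-hADAR biosensor. CIRTS names a family of small RNA-targeting proteins assembled from human protein parts. ADAR converts adenosine in RNA to inosine, and inosine is sequenced as G. The members were HSPA8, HSP90AB1, HSP90AA1, HSPA1A and HSPA1B, whose proteins work mainly in the cytosol, and HSPD1 and HSPA9, whose proteins work in mitochondria. They were taken as 7 fixed hg19 intervals on 1 strand each, and held 4846 of the 4727008 nuclear A positions listed in either library. In the ABA library 4776 member positions were listed of 3510746, and in the library without ABA 4708 of 4070751. Both libraries came from HEK-293T cells with the biosensor. The ABA library was from cells given the small molecule ABA (abscisic acid, a plant hormone used to bring protein domains together), and the other library from cells without it. Dose and duration of ABA are not given in the sources used here. Nuclear means chromosomes 1 to 22 and X. The labels speak of 1 biological replicate, so each condition had 1 library, and each difference below is one between 2 libraries with no replicate check.

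Heat shock proteins are chaperones. The Hsp70 proteins (HSPA8, HSPA1A, HSPA1B and, in mitochondria, HSPA9) bind unfolded stretches of other proteins and release them on ATP exchange, and the Hsp90 proteins (HSP90AA1, HSP90AB1) act later on kinases, steroid receptors and other clients. HSPD1, or Hsp60, forms a barrel in the mitochondrial matrix in which imported proteins fold. HSPA8 and HSP90AB1 are made constantly, while HSPA1A, HSPA1B and HSP90AA1 are the forms best known for induction by heat shock factor HSF1. HEK-293T cells are known to make inducible Hsp70 without heat stress as well.

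Each library had a median depth of 10 reads per listed nuclear position. The ABA library had 44914317 nuclear base reads (1 base read is 1 read at 1 position), and the library without ABA had 50748953. The A-to-G rate is the number of G reads over A plus G reads, summed over the positions of a set. Over all nuclear positions it was 0.0953% with ABA (42791 G reads) and 0.0560% without ABA (28434 G reads), a ratio of 1.70. All intervals given are 95% intervals for counting error only. One read covers several positions and no molecular identifiers are named, so intervals of rates and, more so, of depth are too narrow.

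The member intervals were checked for what they hold. No listed position lay within 3000 nt on either side of any of the 7 intervals on its strand. The gene names are those of the intervals, and an hg19 annotation was not used here. Their opposite strand had 0 G reads among 689 base reads with ABA, which allows a share of up to 0.435%, and 0 among 606 without ABA, which allows up to 0.495%.

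HSPA1A and HSPA1B, neighbouring genes on chromosome 6 with nearly the same coding sequence, could not be told apart. At a distance of 12194 nt, 414 of the 415 listed HSPA1A positions had a listed HSPA1B partner, while the next best distance paired 146. At the paired positions HSPA1A had 10009 base reads and HSPA1B 10046 with ABA, and HSPA1A had 4706 and HSPA1B 5057 without ABA. HSPA1A listed nothing in the first 267 and the last 351 nt of its interval, while HSPA1B listed positions to within 82 nt of its start and 11 nt of its end. Only the 114 HSPA1B positions without a listed partner are read here as HSPA1B alone. Of these, 26 lay before the paired stretch and 82 after it. The sequences of the copies were not compared at these positions, so this reading was not tested. The values of both genes are therefore given together as well as apart, and the totals over 7 genes also without them.

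**Figure D1:**
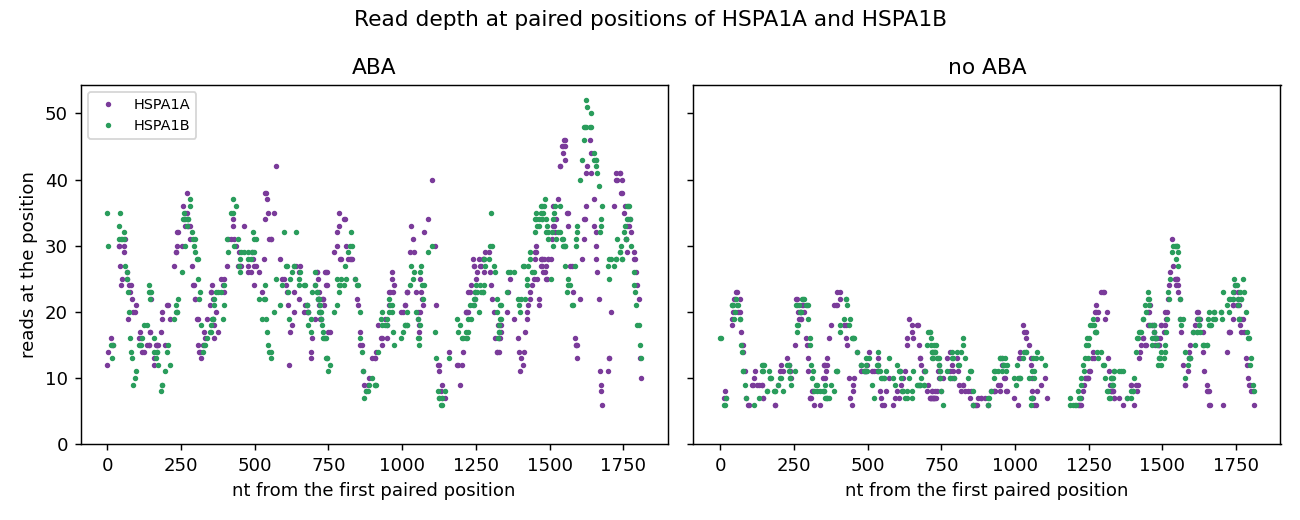
Read depth (reads at a listed A position, vertical axis) of HSPA1A and HSPA1B at positions 12194 nt apart, by distance in nt from the first paired position, in the ABA library (left) and the library without ABA (right). Each point is 1 position of 1 copy. HSPA1A and HSPA1B have close totals in each library, 10009 and 10046 base reads with ABA and 4706 and 5057 without ABA, and both are deeper with ABA.

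Over all 7 genes together the A-to-G rate was 0.155% with ABA (275 of 177880 reads, 0.137 to 0.174) and 0.112% without ABA (168 of 150428, 0.0954 to 0.130). The ratio was 1.38 (1.14 to 1.69). Without HSPA1A and HSPA1B it was 1.30 (1.06 to 1.59). The members thus had a higher A-to-G rate than nuclear positions at large in both libraries, with a ratio between libraries below the nuclear 1.70. Mismatches to C or T at the same A positions, taken as background, stood at 0.0236% with ABA (42 reads) and 0.0180% without ABA (27 reads), a ratio of 1.32 (0.793 to 2.22).

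Many of these reads came from 2 positions that were read as G only. HSPD1 at chromosome 2, 198362018 (minus strand) had 33 of 33 G reads with ABA and 28 of 28 without ABA. HSP90AB1 at chromosome 6, 44218120 (plus strand) had 8 of 8 with ABA and 18 of 18 without ABA. Being read as G throughout in both libraries, these positions do not differ between them, and they weigh on the rates all the same. The HSP90AB1 position was also shallow for its surroundings, where 44 positions within 50 nt had a median depth of 48.5 reads with ABA and 44.5 without ABA. With positions of this kind left out everywhere (a share of at least 35% with at least 3 G reads in either library, a limit chosen after the data were seen), the 7 genes had 0.132% with ABA (234 reads) and 0.0811% without ABA (122 reads). Their ratio was then 1.62 (1.30 to 2.04), and the nuclear ratio 2.01 (1.98 to 2.05).

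The members were deeper than most transcripts, with a median of 33 reads with ABA and 29 without ABA at positions listed in both, so they were also set against other nuclear positions of at least 20 reads in both libraries. There, with the positions read mostly as G left out, the 3202 member positions had 0.134% with ABA and 0.0861% without ABA, a ratio of 1.55 (1.23 to 1.98). The 355819 other positions had 0.125% with ABA and 0.0668% without ABA, a ratio of 1.87 (1.82 to 1.92). The member rate was 1.07 times (0.927 to 1.23) that of the other positions with ABA, and 1.29 times (1.06 to 1.55) without ABA. The ratio between libraries of the members, divided by that of the others, was 0.832 (0.659 to 1.05, a normal approximation). Its interval includes 1, so a difference in this ratio between the members and other well-covered positions was not detectable at this depth.

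The single members had ratios on either side of their total. HSPA8, the constant cytosolic Hsp70, had 56 G reads of 32729 with ABA (0.171%, 0.129 to 0.222) and 20 of 28155 without ABA (0.0710%, 0.0434 to 0.110). The ratio was 2.41 (1.42 to 4.24), and both intervals lay apart. HSPA8 had the lowest p of the 7 genes (two-sided Fisher's exact test, p = 0.00048), yet it missed the threshold once adjusted by Benjamini-Hochberg over all 8928 loci that held 1000 reads or more in each library (adjusted exact p = 0.063). A locus joins listed positions of 1 strand at most 5000 nt apart. In all, 0 of the 7 genes were called, against 48 of the 8928 loci higher with ABA (0.538%) and 2 lower (0.0224%). At an unadjusted exact p of 0.05, 540 loci were higher (6.05%) and 58 lower (0.650%). HSPA8, HSPA1A and HSPA1B were among the higher ones, the HSPA1 copies on reads that either of them may have given.

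The HSPA8 call depended on which loci were tested. Over the 2178 loci holding 5000 reads or more in each library its adjusted exact p was 0.019, and 1 of the 6 heat shock genes left was called, higher with ABA, against 78 loci higher with ABA (3.58%) and 4 lower (0.184%). The p itself was the same there, since only the number of loci tested had changed. Loci joined over gaps of at most 1000 nt gave an adjusted exact p of 0.088. A second test asked whether a locus departed from the nuclear ratio of 1.70 rather than from equal rates. HSPA8 had an exact binomial p of 0.22 in it (adjusted p = 1), and 0 of the 7 genes were called, against 1 of the 8928 loci above the nuclear ratio (0.0112%) and 13 below it (0.146%). At an unadjusted p of 0.05 from this exact test, 98 loci were above and 236 below.

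HSP90AB1, the constant Hsp90, had 57 G reads of 32817 with ABA (0.174%) and 43 of 29300 without ABA (0.147%), a ratio of 1.18 (0.783 to 1.80). One position decided this value. Without position 44218120 the counts were 49 with ABA (0.149%, 0.111 to 0.197) and 25 without ABA (0.0854%, 0.0553 to 0.126), a ratio of 1.75 (1.06 to 2.96). The adjusted exact p was 1 with the position and 0.69 without it.

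HSP90AA1, the inducible Hsp90, had the most A plus G reads, 45358 with ABA and 35615 without ABA. Its rate was 0.130% with ABA (59 G reads, 0.0990 to 0.168) and 0.0983% without ABA (35 G reads, 0.0685 to 0.137). The ratio of 1.32 (0.857 to 2.07) had an interval that includes both 1 and the nuclear 1.70 (adjusted exact p = 1 in both tests).

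HSPA1A had 18 G reads of 10014 with ABA (0.180%, 0.107 to 0.284) and 2 of 4809 without ABA (0.0416%, 0.00504 to 0.150), a ratio of 4.32 (1.04 to 38.4). HSPA1B had 21 of 13035 with ABA (0.161%) and 3 of 7023 without ABA (0.0427%), a ratio of 3.77 (1.13 to 19.8). Together they had 39 G reads with ABA and 5 without ABA, a ratio of 4.0 (1.58 to 13.0). Fisher's exact test gave p = 0.032 for HSPA1A (adjusted p = 0.62) and p = 0.019 for HSPA1B (adjusted p = 0.50), and these 2 results rest on reads that either copy may have given. Their mismatches to C or T were 7 reads of 23017 with ABA (0.0304%, 0.0122 to 0.0627) and 0 of 11827 without ABA (0%, 0 to 0.0312), with intervals that overlap. Without ABA the rate thus rests on few reads. At the 114 HSPA1B positions without a partner there were 2 G reads of 2992 with ABA and 0 of 1586 without ABA. With 3 reads taken for that 0, the share would be 0.189%.

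The mitochondrial members had ratios near or under 1, with wide intervals. HSPD1 had 50 G reads of 22758 with ABA and 44 of 20874 without ABA, a ratio of 1.04 (0.681 to 1.60). Without the position read only as G, 17 reads with ABA (0.0748%, 0.0436 to 0.120) and 16 without ABA (0.0768%, 0.0439 to 0.125) remained, a ratio of 0.975 (0.463 to 2.06). HSPA9, also called mortalin, had 14 of 21169 with ABA (0.0661%, 0.0362 to 0.111) and 21 of 24652 without ABA (0.0852%, 0.0527 to 0.130). Its ratio of 0.776 (0.365 to 1.60) was the lowest of the 7 and the only one under 1 with all positions kept. Against the nuclear ratio, HSPD1 had an unadjusted exact p of 0.023 and HSPA9 of 0.025, both on the lower side, and neither passed adjustment (adjusted p = 0.97 for HSPD1 and 0.98 for HSPA9). These values keep the HSPD1 position read only as G. With positions of at least 35% G and 20 or more reads left out, this exact p was 0.10 for HSPD1 and 0.023 for HSPA9. With the limit of 3 or more G reads at any depth it was 0.039 for HSPD1 and 0.0075 for HSPA9. All of these keep the HSPA9 position with the most G reads, 4 with ABA and 7 without ABA. Without that position the HSPA9 ratio was 0.832 (0.331 to 2.014), and its interval includes the nuclear ratio. The exact p against the nuclear ratio was not computed without it.

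Pooled, the 5 cytosolic genes had 0.158% with ABA and 0.0982% without ABA, a ratio of 1.60 (1.26 to 2.05), and the 2 mitochondrial ones 0.146% with ABA and 0.143% without ABA, a ratio of 1.02 (0.711 to 1.46). The mitochondrial ratio was 0.636 times the cytosolic one (0.419 to 0.966, a normal approximation). With the positions read mostly as G left out it was 0.464 times (0.271 to 0.797). Both comparisons keep HSPA1A and HSPA1B, which had the highest ratios on 39 G reads with ABA and 5 without ABA. The comparison was not computed without these copies, so how far it rests on them was not tested. The split is by the compartment of the protein, since all 7 mRNAs come from nuclear genes, and it was made with values of these data known, so no p is given for it. Mismatches to C or T also had the higher ratio in the cytosolic genes, 1.78 (0.942 to 3.51), on 34 reads with ABA and 15 without ABA. In the mitochondrial genes their ratio was 0.691 (0.245 to 1.84), on 8 reads with ABA and 12 without ABA. These intervals overlap, and the part of this background in the A-to-G split was not tested. Read depth moved the same way. Relative to all nuclear base reads it was 1.30 times as high with ABA in the cytosolic genes (1.29 to 1.31) and 0.997 times in the mitochondrial ones (0.984 to 1.01), and its part in the result was not tested.

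**Figure D2:**
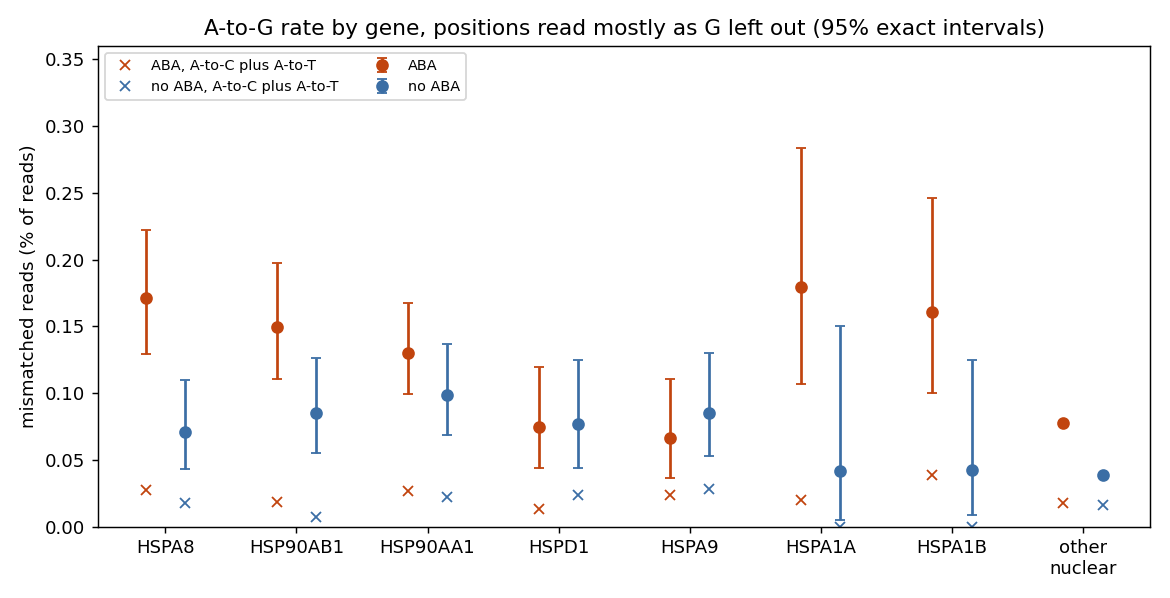
A-to-G rate (points, % of A plus G reads, with 95% exact intervals) and A-to-C plus A-to-T rate (crosses) of each heat shock gene and of all other nuclear positions, with ABA (left of each pair) and without ABA (right). Positions read mostly as G are left out. HSPA8 had 0.171% with ABA and 0.0710% without ABA, and HSPD1 and HSPA9 have overlapping points close to each other.

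**Figure D3:**
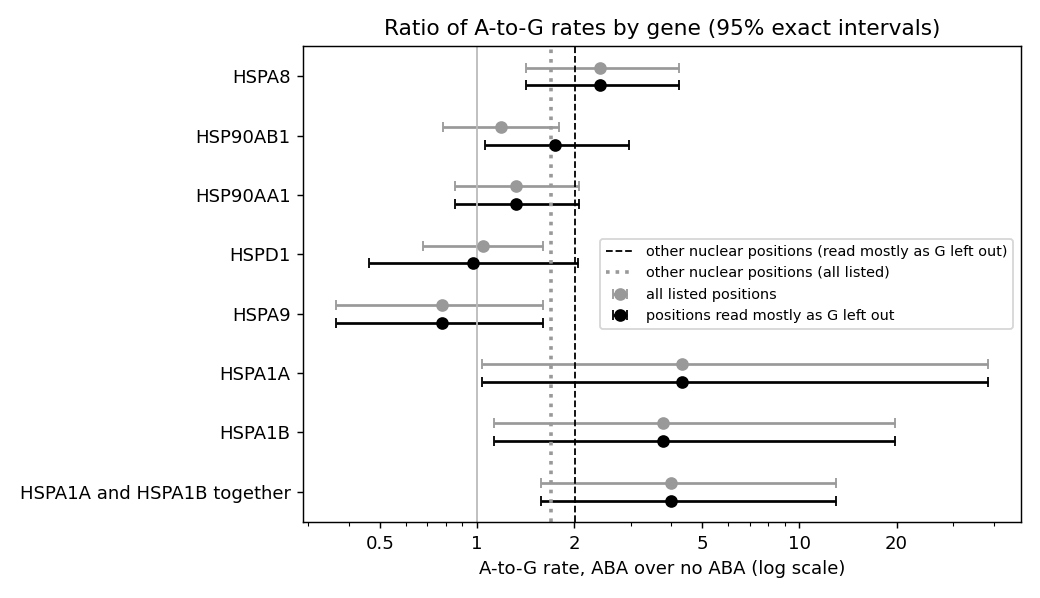
Ratio of A-to-G rates, ABA over no ABA, on a log axis with 95% exact intervals, for all listed positions (grey) and with positions read mostly as G left out (black). The solid line marks equal rates. At other nuclear positions the ratio was 1.70 for all listed positions (dotted line, for the grey points) and 2.01 with those read mostly as G left out (dashed line, for the black points). HSPA8 and the HSPA1 copies lie to the right of both lines. Both intervals of HSPA9 and the grey one of HSPD1 end short of their own line, while the other intervals reach theirs. For HSPA9 this depended on 1 position. Without its position with the most G reads (not drawn), the HSPA9 ratio was 0.832 (0.331 to 2.014), an interval that reaches the dotted line and just reaches the dashed one.

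To show where this spread lies among transcripts, the 1559 loci with at least 10 G reads in both libraries together were ordered by ratio. Their median was 1.60, and their quartiles were 1.08 and 2.62. HSPA1A lay above 90.4% of these loci, HSPA1B above 87.7% and HSPA8 above 71.7%. HSP90AA1 lay above 37.7%, HSP90AB1 above 29.5%, HSPD1 above 22.8% and HSPA9 above 10.9%. These places keep the positions read mostly as G. With them left out, the median of the 1126 loci that then had at least 10 G reads was 1.99, and HSP90AB1, at 1.75, lay above 42.0%. HSPA1A then lay above 88.2%, HSPA1B above 84.4%, HSPA8 above 62.9%, HSP90AA1 above 24.3%, HSPD1 above 10.7% and HSPA9 above 5.51%. In both orders the cytosolic Hsp70 genes stood above the median and the other members below it, and counting error widens the spread of all of them.

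The G reads were scattered one by one. Of the 4638 member positions listed in both libraries, 217 had a G read with ABA (4.68%, 4.09 to 5.33) and 114 without ABA (2.46%, 2.03 to 2.95). The same shares over all nuclear positions listed in both were 1.0% with ABA and 0.577% without ABA. A deeper position has more chances of a G read, and the members are deeper. At positions of at least 20 reads in both, those read mostly as G left out, 5.68% of member positions had a G read with ABA and 3.19% without ABA, at median depths of 42 reads with ABA and 37 without ABA. Other nuclear positions had 3.40% with ABA and 2.05% without ABA, at 29 reads with ABA and 28 without ABA, so depth still differed there. Over all listed member positions, 201 of 218 such positions with ABA and 107 of 114 without ABA had a single G read, and 11 positions had a G read in both. Among all nuclear positions listed in both, 28578 had a G read with ABA and 16458 without ABA, and 2251 of these had it in both. With so few G reads in a gene, a count of 0 shared positions is not read as a trait of that gene. HSPA8 had 52 positions with a G read with ABA and 20 without ABA, of 628, and 0 of them were shared. HSP90AB1 had 45 with ABA and 26 without ABA, of 704, with 6 shared. HSP90AA1 had 57 with ABA and 34 without ABA, of 971, with 2 shared. In the mitochondrial members the counts were close, with 17 with ABA and 16 without ABA of 672 in HSPD1 and 10 with ABA and 13 without ABA of 811 in HSPA9. For HSPA1A there were 16 with ABA and 2 without ABA of 373, and for HSPA1B 20 with ABA and 3 without ABA of 479, with 0 shared in either gene. Median depth of the HSPA1 copies differed as well, 25 reads with ABA in both, against 11 in HSPA1A and 14 in HSPA1B without ABA.

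**Figure D4:**
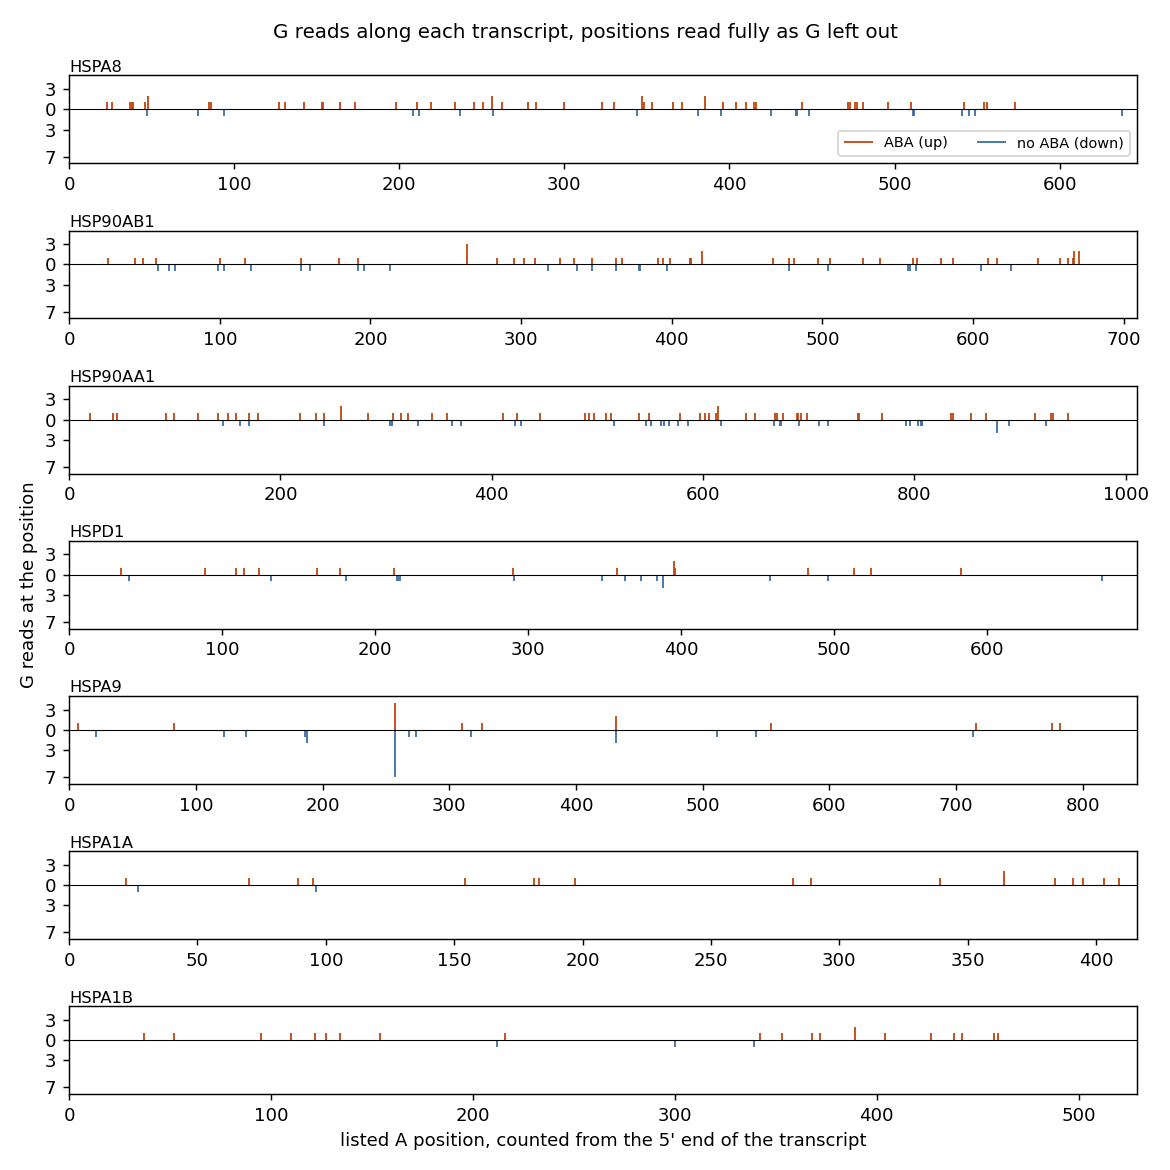
G reads at each listed A position of the 7 transcripts, counted from the 5′ end, with ABA upward and without ABA downward, the 2 positions read fully as G left out. Nearly all bars stand for 1 G read. The tallest bars are at 1 HSPA9 position, with 4 G reads with ABA and 7 without ABA.

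No single position passed the test between the libraries. Of 3203 member positions with at least 20 reads in both, 0 were called, against 0 of 359090 over all nuclear positions in either direction (0% higher, 0% lower). By unadjusted Fisher's exact p under 0.05, 0 member positions were higher or lower, against 63 higher and 2 lower over all, and the lowest p of a member position was 0.23. Apart from the HSPD1 position read only as G, 2 of these positions of at least 20 reads had 3 or more G reads in a library. HSPA9 at chromosome 5, 137902339 (minus strand) had 4 of 22 reads with ABA (18.2%, 5.19 to 40.3) and 7 of 25 without ABA (28.0%, 12.1 to 49.4), with an exact p of 0.50. It had G reads in both libraries at shares far above the rest of the transcript. HSP90AB1 at chromosome 6, 44218200 (plus strand) had 3 of 32 reads with ABA (9.38%, 1.98 to 25) and 0 of 29 without ABA (exact p = 0.24).

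Positions with 2 G reads in a library, named after their values were seen, show how the reads were spread. Over the 7 genes, 13 positions had 2 G reads with ABA and 4 without ABA, 1 of them in both. In HSPA8 there were 4, all on chromosome 11 (minus strand) and all with 0 G reads without ABA. Position 122929470 had 2 of 50 reads with ABA and 0 of 34 without ABA, and position 122930392 had 2 of 89 with ABA and 0 of 69 without ABA. The others, 122929826 and 122931866, had 2 of 85 each with ABA, and 0 of 74 and 0 of 78 without ABA. In HSP90AA1, position 102551249 on chromosome 14 (minus strand) had 2 of 52 reads with ABA and 0 of 39 without ABA, while 102547646 had 0 of 37 with ABA and 2 of 48 without ABA. The mitochondrial members gave the rest of those without ABA. HSPD1 at chromosome 2, 198353747 (minus strand) had 0 of 90 reads with ABA and 2 of 85 without ABA, with an exact p of 0.23. HSPA9 at chromosome 5 (minus strand) had 0 of 27 with ABA and 2 of 37 without ABA at 137902843, and 2 of 43 with ABA and 2 of 53 without ABA at 137893588. HSPA1A at chromosome 6, 31785167 (plus strand) had 2 of 28 reads with ABA and 0 of 18 without ABA. HSPA1B at 31797361, its partner 12194 nt away, had 2 of 43 with ABA and 0 of 15 without ABA. This pair was the only one of the paired positions with G reads in both copies, and it occurred with ABA.

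In HSPA8 the ratio was higher in the 5′ and middle parts than in the 3′ part. With the listed positions of each gene split by number in 3 parts from 5′ to 3′, the 5′ part of HSPA8 had 19 G reads of 9420 with ABA (0.202%) and 5 of 8556 without ABA (0.0584%), a ratio of 3.45 (1.25 to 11.8). Its middle part had 25 of 12992 with ABA and 6 of 10520 without ABA, a ratio of 3.37 (1.35 to 10.1). The 3′ part had 12 of 10317 with ABA and 9 of 9079 without ABA, a ratio of 1.17 (0.454 to 3.15). The interval of the 3′ part overlaps those of the others, so a difference between the parts was not shown.

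Other members had no shared order along the transcript. In HSP90AB1, without the position read only as G, the ratio was 0.781 (0.286 to 2.07) in the 5′ part, 2.49 (1.01 to 6.98) in the middle part and 2.44 (0.991 to 6.83) in the 3′ part. In HSP90AA1 it was 2.17 (0.881 to 6.07), 1.13 (0.571 to 2.29) and 1.09 (0.484 to 2.53) in the same order. The 3′ part of HSPA1A had 10 of 3728 reads with ABA and 0 of 2027 without ABA, 1.81-fold higher if 3 reads are taken for the 0. That of HSPA1B had 11 of 5034 with ABA and 0 of 2883 without ABA, 2.10-fold higher in the same way. These folds leave out the counting error of the G reads with ABA, so they are not lower limits. Their other parts varied. The 5′ part of HSPA1A had 4 of 3340 with ABA and 2 of 1600 without ABA, a ratio of 0.958 (0.137 to 10.6), and its middle part 4 of 2946 with ABA and 0 of 1182 without ABA. The 5′ part of HSPA1B had 8 of 4289 with ABA and 0 of 2163 without ABA, and its middle part 2 of 3712 with ABA and 3 of 1977 without ABA, a ratio of 0.355 (0.0297 to 3.10). In HSPD1, without the position read only as G, the ratio was 1.14 (0.348 to 4.0) in the 5′ part, 0.589 (0.152 to 2.04) in the middle part and 2.0 (0.286 to 22.1) in the 3′ part. In HSPA9 it was 0.497 (0.158 to 1.36), 1.11 (0.256 to 4.83) and 3.44 (0.276 to 180.5) in the same order, the last on 3 G reads with ABA and 1 without ABA. Over all 7 genes, positions read only as G left out, the ratio was 1.38 (0.941 to 2.04) in the 5′ part, 1.56 (1.07 to 2.30) in the middle part and 2.07 (1.35 to 3.26) in the 3′ part, with intervals that overlap.

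Finer stretches give the place of the reads. Listed positions at most 100 nt apart form a run. Of 46 runs holding 1000 reads or more in each library, 27 had a higher rate with ABA, 15 a lower one and 4 had 0 G reads in both. Most loci leaned the same way before any test, 5498 of 8928 (61.6%) toward ABA and 2185 away from it. Runs outside the 7 genes were not counted, so the run count is not read as a trait of these genes. The count keeps the positions read only as G. Among the lower runs, that of HSP90AB1 from 44218032 to 44218335 had 16 G reads with ABA and 21 without ABA. Without position 44218120 it had 8 with ABA and 3 without ABA. The runs named next are examples. In HSPA8 the run at chromosome 11, 122930182 to 122930976, had 19 of 9469 reads with ABA and 4 of 7921 without ABA, a ratio of 3.97 (1.32 to 16.1). The run from 122931835 to 122932036 had 8 of 2737 with ABA and 1 of 2721 without ABA, and the last, 3′-most run, from 122928211 to 122928627, had 4 of 5628 with ABA and 4 of 5226 without ABA. In HSP90AB1 the 3′-most run, from 44221228 to 44221605, had 8 of 3482 with ABA and 0 of 3147 without ABA. With 3 reads taken for the 0 it was 2.41-fold higher, again without the counting error of the reads with ABA. The run of HSPD1 from 198353727 to 198353963 went the other way, with 1 of 3421 reads with ABA and 6 of 3168 without ABA, a ratio of 0.154 (0.00336 to 1.27).

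ADAR enzymes are known to depend on the bases beside the edited adenosine, and the files show whether the neighbouring transcript base is a listed A. Over member positions of at least 20 reads, A positions not followed by another A had 0.154% with ABA (0.130 to 0.180) and 0.0916% without ABA (0.0725 to 0.114). Those followed by an A had 0.0934% with ABA (0.0684 to 0.125) and 0.0754% without ABA (0.0519 to 0.106). The ratio was 1.68 (1.27 to 2.24) without a following A and 1.24 (0.776 to 2.0) with one. Other nuclear positions had the same order, with a ratio of 2.06 (2.0 to 2.13) without a following A and 1.33 (1.26 to 1.41) with one. For the base before, member positions preceded by an A had 0.154% with ABA and 0.104% without ABA, a ratio of 1.48 (1.01 to 2.19). Those not so preceded had 0.124% with ABA and 0.0771% without ABA, a ratio of 1.61 (1.18 to 2.20), and the intervals of both overlap. Other nuclear positions had a ratio of 2.09 (2.0 to 2.20) when preceded by an A and 1.77 (1.71 to 1.83) when not, the opposite order, with intervals that lie apart.

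Read depth of the inducible members differed more between the libraries than that of nearly all loci. At positions listed in both libraries, per 1000000 nuclear base reads, the ratio of all 8928 loci had a median of 0.992, with 0.798 at the 5th and 1.23 at the 95th percentile. Base reads per 1000000 at the shared positions of HSPA1A were 236 with ABA and 117 without ABA, a ratio of 2.01 (1.95 to 2.09). Those of HSPA1B were 314 with ABA and 171 without ABA, a ratio of 1.84 (1.79 to 1.89). Of the 8928 loci, 1 had a higher ratio than HSPA1A and 3 than HSPA1B, HSPA1A among them. HSPA1A had more reads with ABA at 99.2% of its shared positions and HSPA1B at 98.1%, against 40.5% of all shared nuclear positions. The HSPA1B positions without a listed partner had a ratio of 1.80 (1.69 to 1.91), so HSPA1B, as its reads were placed, was deeper with ABA there too. For HSPA1A, 414 of the 415 listed positions had a partner, and nothing was listed in the first 267 and last 351 nt of its interval. Its reads may come from either copy, and how much of its depth ratio is due to HSPA1B reads was not tested.

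HSP90AA1, the other inducible member, came next. It had 1128 base reads per 1000000 with ABA and 865 without ABA, a ratio of 1.30 (1.29 to 1.32), above 98.1% of loci. The constant forms had smaller ratios: HSPA8 had 817 with ABA and 681 without ABA, a ratio of 1.20 (1.18 to 1.22), and HSP90AB1 had 819 with ABA and 713 without ABA, a ratio of 1.15 (1.13 to 1.17). HSPD1 had 567 with ABA and 504 without ABA, a ratio of 1.12 (1.10 to 1.15). HSPA9 had 529 with ABA and 594 without ABA, a ratio of 0.889 (0.873 to 0.906), and was the only member deeper without ABA. HSPA8, HSP90AB1, HSPD1 and HSPA9 lay above 92.8%, 87.4%, 83.6% and 19.9% of loci, between the percentiles just given. With 1 library per condition there is no test of these depths, and more RNA per cell cannot be told apart from more cells that hold it.

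**Figure D5:**
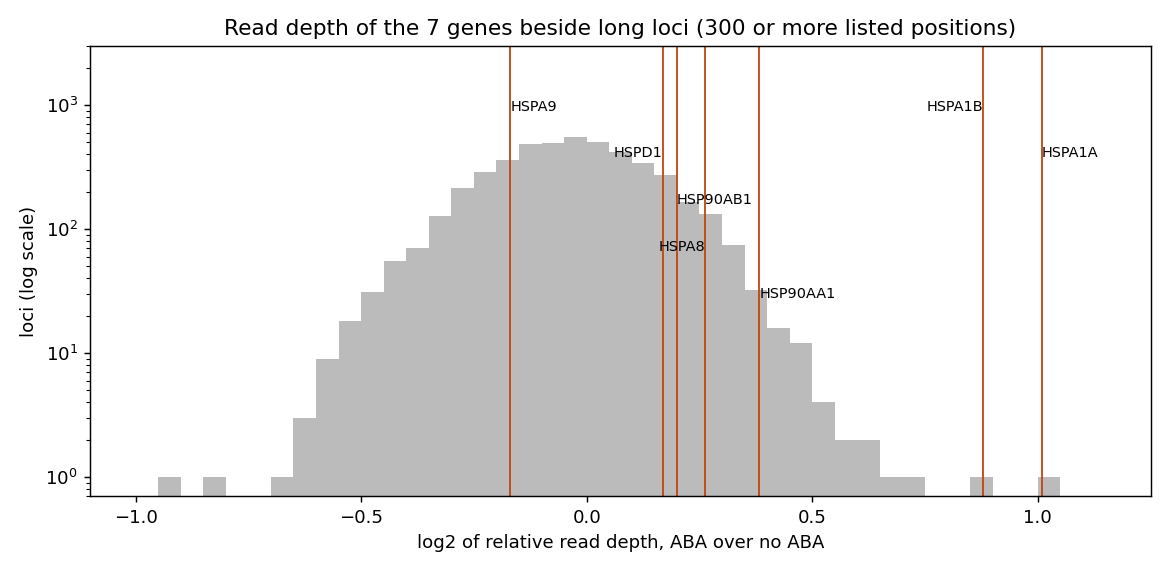
Relative read depth, ABA over no ABA, on a log2 axis: the number of loci with at least 300 listed positions (grey, log-scaled count) and the 7 heat shock genes (lines). HSPA1A and HSPA1B stand at the right edge with ratios of 2.01 and 1.84, HSP90AA1 at 1.30, and HSPA9 at 0.889 left of the centre.

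Mean depth per listed A position allows for the length of the transcripts. With ABA, HSPA8 had the highest mean depth (1.30 reads per position per 1000000 nuclear base reads), then HSP90AB1 and HSP90AA1 (both 1.16), HSPD1 (0.844), HSPA1B (0.656), HSPA9 (0.652) and HSPA1A (0.631). Without ABA, HSPA8 had 1.09, HSP90AB1 1.01, HSP90AA1 0.891, HSPD1 0.750, HSPA9 0.733, HSPA1B 0.357 and HSPA1A 0.314. HSPA1A, HSPA1B and HSPA9 were thus close to each other with ABA, while without ABA the HSPA1 copies were the lowest by a wide margin. Median depth at shared positions was 52 reads with ABA and 41.5 without ABA in HSPA8, 25 with ABA and 11 without ABA in HSPA1A, and 25 with ABA and 14 without ABA in HSPA1B. In HSPA9 it was 26 with ABA and 29 without ABA.

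Promoter sequences are shown for the 3 members known as heat-inducible, whose depth differed most between the libraries, and for HSPA9. Heat shock factor is known to bind repeats of GAA and its complement. Windows of 300 bases, 250 before and 50 after each start, from RefSeq on GRCh38.p14 (another build than that of the sites above), were searched for GAANNTTC and TTCNNGAA. Each motif is its own reverse complement, so 1 search covers both strands, and matches of both can overlap. A match was found in 13.5% of 35116 windows, and in 7 of the 11 member windows, at least 1 for each of the 7 genes. HSPA9, which was not deeper with ABA, is included for comparison. Matched letters are in capitals, and the windows are HSPA1A at chr6:31815293-31815592 (plus), HSPA1B at chr6:31827488-31827787 (plus), HSP90AA1 at chr14:102086995-102087294 (minus) and HSPA9 at chr5:138575352-138575651 (minus).
HSPA1A: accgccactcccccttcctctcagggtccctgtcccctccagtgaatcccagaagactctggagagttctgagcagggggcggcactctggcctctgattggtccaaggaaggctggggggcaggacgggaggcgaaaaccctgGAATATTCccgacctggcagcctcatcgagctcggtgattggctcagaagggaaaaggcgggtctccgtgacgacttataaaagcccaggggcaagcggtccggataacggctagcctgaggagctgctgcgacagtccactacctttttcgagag
HSPA1B: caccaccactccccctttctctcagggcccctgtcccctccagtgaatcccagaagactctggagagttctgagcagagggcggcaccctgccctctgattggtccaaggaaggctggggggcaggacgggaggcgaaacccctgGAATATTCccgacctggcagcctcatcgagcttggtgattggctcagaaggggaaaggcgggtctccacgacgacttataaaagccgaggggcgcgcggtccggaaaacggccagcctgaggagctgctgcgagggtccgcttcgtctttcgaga
HSP90AA1: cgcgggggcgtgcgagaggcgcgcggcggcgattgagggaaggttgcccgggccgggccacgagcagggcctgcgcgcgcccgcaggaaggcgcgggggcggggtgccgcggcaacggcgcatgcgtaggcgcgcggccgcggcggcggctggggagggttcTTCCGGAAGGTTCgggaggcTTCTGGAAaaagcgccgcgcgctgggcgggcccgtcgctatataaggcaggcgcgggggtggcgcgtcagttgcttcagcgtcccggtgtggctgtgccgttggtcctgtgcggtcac
HSPA9: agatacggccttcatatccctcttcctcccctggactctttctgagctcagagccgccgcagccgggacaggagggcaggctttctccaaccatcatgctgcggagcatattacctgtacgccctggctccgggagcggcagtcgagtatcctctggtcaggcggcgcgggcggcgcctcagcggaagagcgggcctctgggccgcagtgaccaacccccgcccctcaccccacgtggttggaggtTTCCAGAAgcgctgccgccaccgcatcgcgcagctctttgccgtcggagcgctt
The HSPA1A and HSPA1B windows had 277 identical aligned bases, 22 mismatched ones and 2 gap bases, and each held GAATATTC once, at -106 and -105 from the start. The HSP90AA1 window held 3 matches, of which 2 overlap, and the HSPA9 window held 1, at -4. A second HSP90AA1 window, farther upstream, had 0 matches. Of the windows not printed, that of HSPA8 and 1 of HSP90AB1 had 4 matches each, and 1 of HSPD1 had 3. The other windows of HSP90AB1 and HSPD1 had 0, and which start the reads came from was not tested. The count of matches did not follow the depth ratios of the members.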

How the data were processed

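The members and every list and split used here were chosen with earlier results of these data known. Per the labels' protocols, mRNA was enriched and made into libraries with a KAPA kit. Reads were trimmed and aligned with cutadapt and HISAT2 to hg19, tools and build named in the submitters' processing notes. The program that counted bases and any removal of duplicate reads are not given in the sources used here.

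The authors deposited, for each library and strand, raw counts of the 4 bases read at every listed position. Per the file headers, plus-strand counts are for A positions with A-to-G, and minus-strand counts for T positions with T-to-C, which were read here as their complement, with a read cutoff of 5. The lowest depth found was 6 reads. Positions under the cutoff are missing, so rates and depths describe listed positions only.

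From these counts the following were computed in Python 3.11.15 (scipy 1.17.1, numpy 2.4.6, pandas 2.3.3, with matplotlib 3.10.9 for plots). Rates have Clopper-Pearson intervals and ratios exact conditional binomial intervals. Loci of 1000 or more reads, and positions of 20 or more, in each library were tested by two-sided Fisher's exact tests, and loci also by an exact binomial test against the nuclear ratio. P-values were adjusted by Benjamini-Hochberg over all nuclear loci or positions and called under 0.05. They compare 2 libraries, not conditions. All 7 genes are described. Sites are named where both libraries have at least 20 reads and either has at least 3 G reads, at most 5 a gene by G reads. Other sites were picked with their values known. Both locus tests were run on simulated data. Of 200 loci raised 3-fold over the nuclear ratio, Fisher's test called 26 (13%) and the test against the nuclear ratio 5 (2.5%). At 10-fold they called 184 (92%) and 131 (65.5%). Of the 6 raised loci deepest without ABA, they called 6 and 4 at 3-fold. Most loci with a 3-fold change would thus be missed. Alternatives were run for the position set, read minima, locus gap, background subtraction and positions read mostly as G. Chaperone genes beyond the 7 were not analysed here, since no hg19 annotation was used.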

Additional observations from a re-analysis of the deposited data

How the results depend on the processing

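No paired analysis was possible because each condition has 1 library. Leaving out a replicate was not possible either. The pooled ratio of the 7 genes kept its direction under 7 alternatives, from 1.30 without HSPA1A and HSPA1B to 1.62 without positions read mostly as G. Counts of loci moved with the rules. At 5000 or more reads, 78 of 2178 loci were higher with ABA, 4 lower and 3 above the nuclear ratio, as fewer loci were tested. With gaps of at most 1000 nt, of 9908 loci 0 were lower (33 higher) and 2 above the nuclear ratio. Leaving out positions of at least 35% G with 20 or more reads gave 1 lower. With 3 or more G reads at any depth, a limit added after seeing the data, of 8924 loci 0 were lower (40 higher), 2 above and 2 below the nuclear ratio. The cause was not tested beyond the change in the loci or positions used. No heat shock gene other than HSPA8 passed under any of these, with adjusted exact p of at least 0.19. No position passed with minima of 10 or 50 reads, where 4255 and 724 member positions were tested. HSPA1A and HSPA1B together had 7.84 (1.16 to 335) at 20 or more reads, against 4.0 with all positions, and 3.28 to 4.09 otherwise. Of the 48 values recomputed for single genes, 40 moved by less than their counting error, among them HSPD1, at 0.975 (1.04 with all positions) without its position read as G. The other 8 stayed on their side of 1: HSP90AB1 at 20 or more reads (1.81) and the 7 depth ratios with all listed positions (0.970 to 2.35). HSPA1A at 20 or more reads had 4 G reads with ABA and 0 of 1280 without ABA, and so gave no ratio. Depth limits what single positions and the HSPA1 copies can show.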
